A study of Xenopus laevis with 51 samples.

Results

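GAP43, the stathmins STMN1, STMN2, STMN3 and STMN4, the collapsin response mediator genes DPYSL2, DPYSL3, DPYSL5 and CRMP1, and MARCKSL1 were followed in the hindbrain and eye of Xenopus laevis after injury to central axons. An entry belonged to the set when the gene symbol at the start of its row name was 1 of these 10, which gave 20 of the 24381 entries in each library. Xenopus laevis is an allotetraploid that often keeps a gene as a pair of homeologs on an L and an S chromosome, and homeolog entries were kept separate. The set had 3 entries for DPYSL5, 1 for MARCKSL1 and 2 for each of the other genes. Only both entries of STMN2 and DPYSL3 and 1 entry of CRMP1 were assigned to an L or S chromosome. Elsewhere, that entries of the same symbol are homeologs is an assumption. None of the 20 was at 0 in any of the 51 libraries.

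These proteins act in the growth cone, the motile tip of a growing axon. GAP43 is a membrane-bound substrate of protein kinase C that concentrates in growth cones, and MARCKSL1 is a related type of substrate that binds calmodulin and membranes near the actin cortex. Stathmins bind tubulin and favour the turnover of microtubules: STMN1 is cytosolic, while STMN2, STMN3 and STMN4 are neural members anchored to membranes. Collapsin response mediator proteins (DPYSL2, DPYSL3, DPYSL5 and CRMP1) bind tubulin or actin and relay semaphorin signals. Frogs regrow optic axons throughout life, whereas axons of the spinal cord regrow in the tadpole and largely fail to after metamorphosis.

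The RNA-seq libraries formed 17 groups of 3. All animals were albino Xenopus laevis from Xenopus Express, either tadpoles operated at stage 53 or juvenile frogs 1 to 3 months past metamorphosis. Hindbrains, which hold the cell bodies of descending spinal axons, were taken from SCI (spinal cord injury) tadpoles at 3 days, 7 days and 3 weeks after surgery, and unoperated tadpoles of matched age were the controls at each time. SCI frogs were sampled at the same 3 times, and all were compared with 1 group of unoperated frogs. After ONC (optic nerve crush) in the juvenile frog, operated eyes and contralateral unoperated eyes were collected 3 days, 11 days or 3 weeks later, together with eyes of surgically naive frogs. Each library pooled the tissue of several animals, 5 hindbrains kept in RNAlater overnight or 6 eyes homogenized at once. Nothing in the labels ties a library to particular animals, so p-values measure the spread between these 3 pools per group.

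Expression is given in FPKM as deposited, a unit that scales fragments to the length of the transcript and the size of the library. Operated and control libraries were compared by limma on log2(FPKM + 0.5) for every entry that averaged 0.45 FPKM or more in a compared group, and an entry was called when its p, adjusted by Benjamini and Hochberg, was 0.05 or less. Log2 fold changes are operated over control on that scale and are followed by their standard error. Whole hindbrains and whole eyes were sequenced, so a change in the number of cells that express a gene and a change in RNA per cell cannot be told apart. Library sums of FPKM ranged over 374367 to 493408 in hindbrain and 616382 to 1209700 in eye, and replicates correlated with r of 0.982 to 0.994 in hindbrain and 0.926 to 0.991 in eye. Photoreceptor markers summed to between 9046 and 16094 FPKM in the eye libraries. Read depth was not analysed here. In the library titles, an unexplained letter B marked ONC replicates 1 and 3 and contralateral replicate 3 at 3 days, and ONC replicates 1 and 3 and all 3 contralateral eyes at 11 days. A letter R marked the 3 frog hindbrain controls, so R and the frog control group cannot be told apart. Contralateral replicate 3 at 3 days stood apart from the other contralateral eyes of that time, with r of 0.960 and 0.926 to them. Those 2 correlated at 0.979. ONC replicate 2 of 3 days, which lacked the letter, had r of 0.968 and 0.959 to ONC replicates 1 and 3. The B libraries of 3 days had FPKM sums of 953399 to 1003390, against 660739 to 761680 in the others of that time. Entries at 0 numbered 319 to 492 in these B libraries, against 658 to 1200 in the others. Retinal ganglion cell marker sums of contralateral replicates 1, 2 and 3 were 46.2, 78.0 and 26.4 FPKM, against 38.5 to 44.3 FPKM in naive eyes.

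GAP43 was the member with the largest rise in the crushed eye. Its entry X020171 lies, by its row name, on JGIv7b scaffold 000132381 from base 843507 to 877789 on the plus strand, and X023918 lies on scaffold 000207208 from 3473900 to 3501834 on the minus strand. At 11 days X020171 read 262, 327 and 310 FPKM in ONC eyes, against 46.7, 43.6 and 43.9 FPKM in contralateral eyes. X023918 read 288, 355 and 334 FPKM in ONC eyes, against 38.9, 37.1 and 43.6 FPKM in contralateral eyes. The groups lay far apart at both entries, and every ONC library exceeded every naive eye, where X020171 read 44.3, 50.6 and 46.9 FPKM. The log2 fold change was 2.72 ± 0.12 for X020171 (adjusted p = 2.01e-05) and 3.01 ± 0.12 for X023918 (adjusted p = 2.01e-05), or ratios of mean FPKM of 6.69 and 8.17.

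The GAP43 entries differed at 3 days. X023918 read 82.1, 124 and 111 FPKM in ONC eyes, against 46.9, 45.0 and 41.1 FPKM in contralateral eyes, while X020171 read 61.1, 72.5 and 71.6 FPKM in ONC eyes, against 63.3, 59.0 and 47.4 FPKM in contralateral eyes. ONC and contralateral libraries did not overlap at X023918 and did overlap at X020171. Neither entry passed the test: X023918 had a log2 fold change of 1.23 ± 0.17 with an adjusted p of 0.0688, and X020171 one of 0.28 ± 0.15 with an adjusted p of 0.871. X023918 did pass when all eye groups shared 1 fit (adjusted p = 6.95e-05), when naive eyes were the control (adjusted p = 0.0047) and with the title letter as a covariate (adjusted p = 0.0183). X020171 also passed when naive eyes were the control (log2 fold change 0.53, adjusted p = 0.0309). At 3 weeks X020171 read 108, 131 and 147 FPKM in ONC eyes, against 40.7, 51.5 and 41.1 FPKM in contralateral eyes, a log2 fold change of 1.52 ± 0.13 (adjusted p = 0.00185). X023918 read 121, 133 and 172 FPKM in ONC eyes at this time, against 35.0, 37.4 and 36.9 FPKM in contralateral eyes, a log2 fold change of 1.93 ± 0.13 (adjusted p = 0.00084). Both entries were thus still above the contralateral eyes, at lower levels than in the 11-day ONC eyes.

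**Figure D1:**
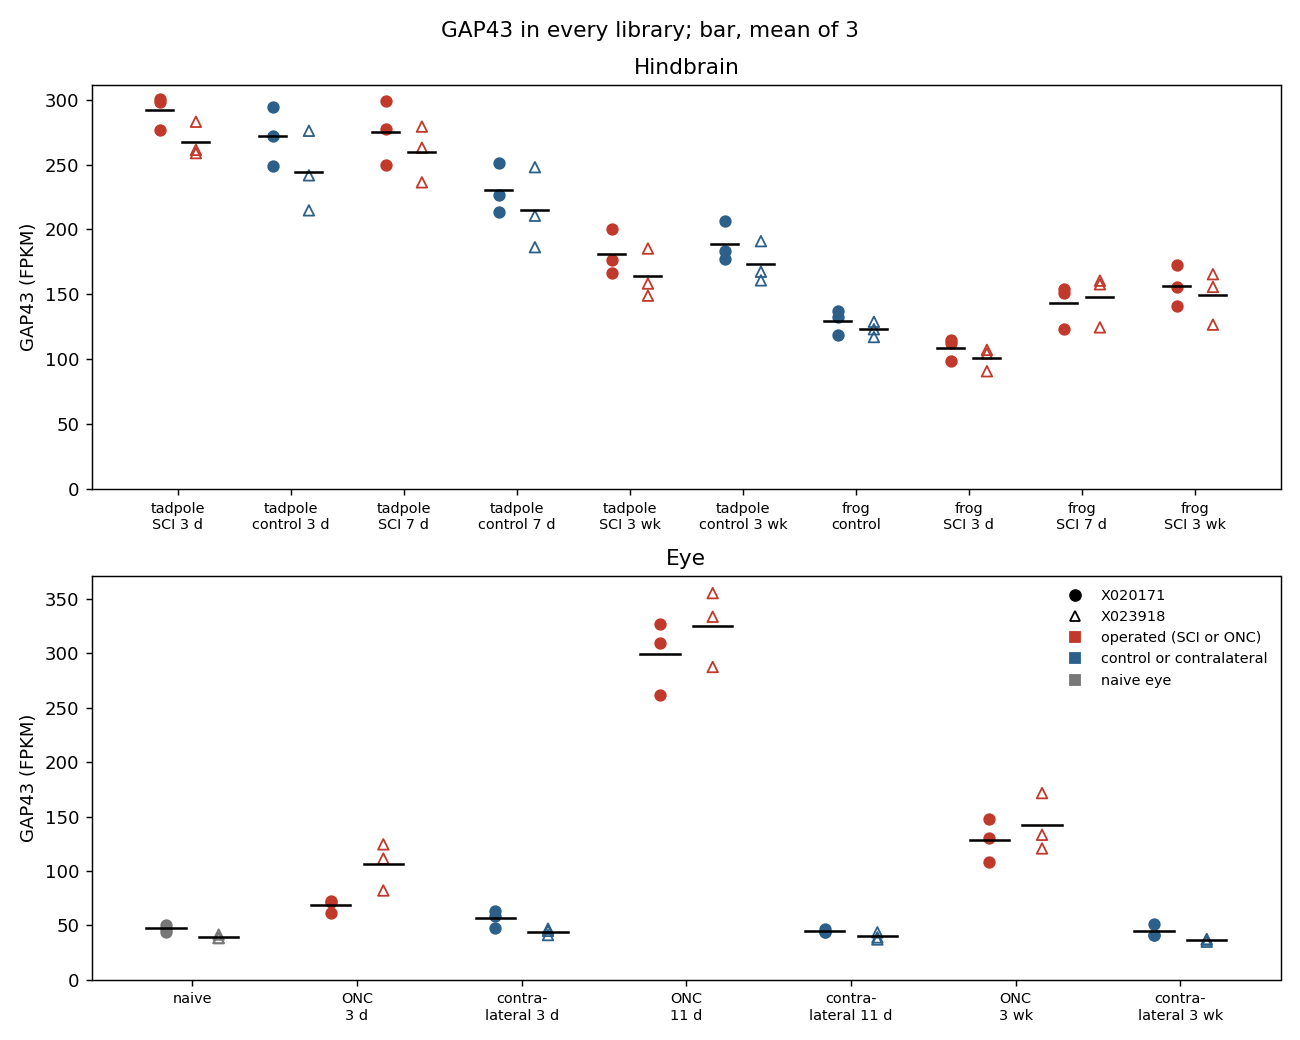
FPKM of the GAP43 entries in every library (points) with the group mean (bar), hindbrain and eye groups along the horizontal axis. ONC eyes at 11 days reached 262 to 355 FPKM, above all contralateral and naive eyes.

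Of the membrane-anchored stathmins, STMN4 and STMN2 had entries called in the crushed eye and STMN3 had none. STMN4, a neural stathmin, was the only member gene called at 3 days, with 2 of 20 member entries called higher, against a background of 0.190% called and 0.154% called higher among all tested entries. Entry S16181839 read 116, 114 and 94.2 FPKM in ONC eyes, against 37.5, 43.8 and 29.5 FPKM in contralateral eyes (log2 fold change 1.55 ± 0.18, adjusted p = 0.0377). Entry X011567 read 85.2, 82.3 and 88.5 FPKM in ONC eyes, against 25.5, 23.0 and 21.2 FPKM in contralateral eyes (log2 fold change 1.86 ± 0.12, adjusted p = 0.0062). ONC and contralateral libraries were well separated at both entries. Leaving out 1 library lost both calls when it was ONC replicate 1 or ONC replicate 3, and 1 of the 2 calls when it was ONC replicate 2, contralateral replicate 1 or contralateral replicate 2. The 3-day libraries included those with the letter B and contralateral replicate 3, whose part in these values was not tested beyond these alternatives. With the B libraries of 3 days left out, only ONC replicate 2 and contralateral replicates 1 and 2 of that time remained. All eye groups in 1 fit, an alternative chosen after seeing the data, then gave log2 fold changes of 1.48 for S16181839 and 1.75 for X011567. With 1 ONC library left, that fit has no spread between ONC libraries of 3 days and cannot show whether the calls depend on the letter.

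At 11 days STMN4 S16181839 read 149, 183 and 165 FPKM in ONC eyes, against 40.9, 39.4 and 43.2 FPKM in contralateral eyes (log2 fold change 1.99 ± 0.11, adjusted p = 5.68e-05). X011567 read 91.5, 142 and 89.7 FPKM in ONC eyes, against 25.9, 24.2 and 22.5 FPKM in contralateral eyes (log2 fold change 2.1 ± 0.18, adjusted p = 0.000475). The lowest ONC library was over 3 times the highest contralateral one at each entry. At 3 weeks ONC eyes read 94.4, 105 and 104 FPKM at S16181839, against 41.7, 40.1 and 28.8 FPKM in contralateral eyes, a log2 fold change of 1.46 ± 0.14 (adjusted p = 0.00254). X011567 read 48.5, 58.0 and 53.7 FPKM in ONC eyes, against 23.8, 22.8 and 19.5 FPKM in contralateral eyes, a log2 fold change of 1.26 ± 0.10 (adjusted p = 0.00173).

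STMN2, also known as SCG10, was the member with the highest level in the hindbrain and, in the eye, stood near its contralateral level at 3 days. The homeologs are assigned to chromosomes 6L and 6S in a supplementary table of the study. At 3 days STMN2 L read 144, 156 and 153 FPKM in ONC eyes, against 139, 147 and 153 FPKM in contralateral eyes, and STMN2 S read 164, 176 and 215 FPKM in ONC eyes, against 152, 146 and 208 FPKM in contralateral eyes. The libraries of both groups overlapped at each homeolog. At 11 days STMN2 L read 489, 554 and 526 FPKM in ONC eyes, against 143, 137 and 144 FPKM in contralateral eyes, a log2 fold change of 1.88 ± 0.12 (adjusted p = 9.1e-05). STMN2 S read 509, 649 and 615 FPKM in ONC eyes, against 143, 144 and 148 FPKM in contralateral eyes, a log2 fold change of 2.02 ± 0.14 (adjusted p = 0.000137). The contralateral libraries spanned only a few FPKM, and the ONC libraries were all more than 3 times as high. At 3 weeks STMN2 L read 309, 333 and 335 FPKM in ONC eyes, against 133, 136 and 117 FPKM in contralateral eyes (log2 fold change 1.34 ± 0.09, adjusted p = 0.000929). STMN2 S had a log2 fold change of 1.31 ± 0.10 (adjusted p = 0.00123), with 312, 316 and 371 FPKM in ONC eyes, against 131, 142 and 127 FPKM in contralateral eyes.

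The cytosolic STMN1 and the neural STMN3 did not pass the test in any ONC comparison. STMN1 XeXenL6RMv10043333m read 327, 641 and 327 FPKM in ONC eyes at 11 days, against 191, 179 and 280 FPKM in contralateral eyes, and STMN1 X000110 read 135, 254 and 122 FPKM in ONC eyes, against 89.7, 84.7 and 102 FPKM in contralateral eyes. ONC replicate 2 was the highest library at both entries, and the log2 fold changes of 0.94 ± 0.29 and 0.81 ± 0.25 had adjusted p values of 0.126 and 0.135. With all eye groups in 1 fit both STMN1 entries were called at 11 days (adjusted p = 0.0465 and 0.0262), and with naive eyes as control the first of them was (log2 fold change 1.27, adjusted p = 0.0144). STMN3 XenBase_68533911 read 114, 142 and 124 FPKM in ONC eyes at 11 days, against 107, 92.3 and 101 FPKM in contralateral eyes (log2 fold change 0.34 ± 0.12, adjusted p = 0.189). Its groups did not overlap, and it was called under the same alternative settings, at adjusted p of 0.0354 with all eye groups in 1 fit and 0.00521 with naive eyes as control. It was also called at 3 weeks with naive eyes as control (log2 fold change 0.37, adjusted p = 0.0221). STMN3 XenBase_148224127 read 103, 94.5 and 118 FPKM in ONC eyes at 3 days, against 128, 131 and 141 FPKM in contralateral eyes. Every ONC library was lower there than every contralateral one, at a log2 fold change of -0.34 that was not called (adjusted p = 0.723). Summed over both entries, STMN3 averaged 192 FPKM in ONC, 243 in contralateral and 177 in naive eyes. The contralateral eyes of 3 days were thus farther from the naive level than the ONC eyes. Contralateral over naive, this entry was called only with all eye groups in 1 fit (log2 fold change 0.40, adjusted p = 0.0476). STMN3 XenBase_148224127 read 111, 150 and 133 FPKM in ONC eyes at 11 days, against 120, 123 and 124 FPKM in contralateral eyes, with overlap between the groups.

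CRMP1 and DPYSL3 were the collapsin response mediator genes with both entries called at 11 days. CRMP1 S, assigned to chromosome 1S, read 25.5, 34.7 and 26.9 FPKM in ONC eyes, against 9.996, 11.0 and 8.85 FPKM in contralateral eyes (log2 fold change 1.49 ± 0.14, adjusted p = 0.000871). CRMP1 X010285 read 34.3, 42.0 and 40.3 FPKM in ONC eyes, against 21.1, 21.7 and 19.3 FPKM in contralateral eyes (log2 fold change 0.89 ± 0.11, adjusted p = 0.00406). Both entries were higher in all 3 ONC libraries, with the larger relative rise at the S homeolog. DPYSL3 L, on chromosome 3L, read 163, 167 and 178 FPKM in ONC eyes, against 103, 111 and 96.4 FPKM in contralateral eyes (log2 fold change 0.71 ± 0.11, adjusted p = 0.0118). DPYSL3 S, on chromosome 3S, read 192, 219 and 204 FPKM in ONC eyes, against 115, 123 and 116 FPKM in contralateral eyes (log2 fold change 0.79 ± 0.11, adjusted p = 0.00712). The rise of DPYSL3 was smaller than that of GAP43 or STMN2, and its libraries did not overlap between the groups.

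At 3 weeks CRMP1 S read 25.2, 31.7 and 34.7 FPKM in ONC eyes, against 13.8, 11.8 and 12.3 FPKM in contralateral eyes (log2 fold change 1.23 ± 0.13, adjusted p = 0.00365). CRMP1 X010285 read 40.7, 52.9 and 50.4 FPKM in ONC eyes, against 28.9, 28.4 and 24.8 FPKM in contralateral eyes (log2 fold change 0.79 ± 0.11, adjusted p = 0.0216). At X010285, 2 of the 3 ONC libraries of this time were above every ONC library of 11 days. The 3-week call of CRMP1 X010285 held in 7 of 14 alternatives (adjusted p of up to 0.109) and was lost without ONC replicate 2 or 3 or any contralateral library. DPYSL3 S read 158, 184 and 176 FPKM in ONC eyes, against 121, 119 and 110 FPKM in contralateral eyes (log2 fold change 0.56 ± 0.09, adjusted p = 0.034), and DPYSL3 L, with 140, 157 and 150 FPKM in ONC eyes, against 109, 112 and 100 FPKM in contralateral eyes, had an adjusted p of 0.0616. With naive eyes as control DPYSL3 L was called at this time (log2 fold change 0.46, adjusted p = 0.0140). The call of DPYSL3 S held in 8 of 14 alternatives (adjusted p of up to 0.185) and was lost without the same libraries as that of CRMP1 X010285. At 3 days CRMP1 and DPYSL3 libraries overlapped between ONC and contralateral eyes: CRMP1 X010285 read 16.3, 26.5 and 17.5 FPKM in ONC eyes, against 30.1, 33.0 and 16.4 FPKM in contralateral eyes. The 3 low values, of ONC replicates 1 and 3 and contralateral replicate 3, were those of the libraries with the letter B. The retinal ganglion cell marker sum of that contralateral replicate (26.4 FPKM) lay within the range of the ONC eyes of that time (24.9 to 28.1 FPKM). With the title letter as a covariate no CRMP1 or DPYSL3 entry was called at 3 days. The part of the letter in these values was not tested further.

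DPYSL5, a collapsin response mediator of developing neurons, was called through 1 of its 3 entries. X003164 read 11.1, 14.7 and 11.5 FPKM in ONC eyes at 11 days, against 8.14, 7.73 and 8.05 FPKM in contralateral eyes (log2 fold change 0.60 ± 0.13, adjusted p = 0.0459). At 3 weeks it read 17.3, 19.8 and 17.7 FPKM in ONC eyes, against 12.0, 11.0 and 9.30 FPKM in contralateral eyes (log2 fold change 0.74 ± 0.11, adjusted p = 0.0248). ONC libraries were the higher ones at both times, but the 11-day call held in only 5 of 15 alternatives and was lost when any single library was left out. The 3-week call held in 9 of 14 alternatives, with an adjusted p of up to 0.393, and was lost without ONC replicate 2 or 3 or contralateral replicate 2 or 3. X002001, the strongest DPYSL5 entry, read 25.4, 33.9 and 32.1 FPKM in ONC eyes at 3 weeks, against 24.2, 21.9 and 23.6 FPKM in contralateral eyes, and was called at no time against contralateral eyes. With naive eyes as control it was called at 3 weeks (log2 fold change 0.75, adjusted p = 0.0107). X005982 reached at most 2.40 FPKM in any library. DPYSL2, the founding member of the family, read 31.9 to 64.0 FPKM at X003773 and 32.8 to 72.1 FPKM at X008800 in eyes and was not called against contralateral eyes, with log2 fold changes of 0.29 and 0.40 at 11 days (adjusted p = 0.214 and 0.0794). With naive eyes as control DPYSL2 X008800 was called at 3 weeks (log2 fold change 0.39, adjusted p = 0.0401).

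MARCKSL1 did not rise in the eye. At 11 days it read 60.0, 67.4 and 65.7 FPKM in ONC eyes, against 77.1, 69.9 and 70.3 FPKM in contralateral eyes, so that every ONC library was below every contralateral one at a log2 fold change of -0.17 (adjusted p = 0.399). At 3 weeks it read 58.4, 59.6 and 59.8 FPKM in ONC eyes, against 72.1, 65.3 and 61.0 FPKM in contralateral eyes, again with the ONC libraries lower and no call. In naive eyes it read 60.0, 58.1 and 52.9 FPKM, near the ONC values.

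**Figure D2:**
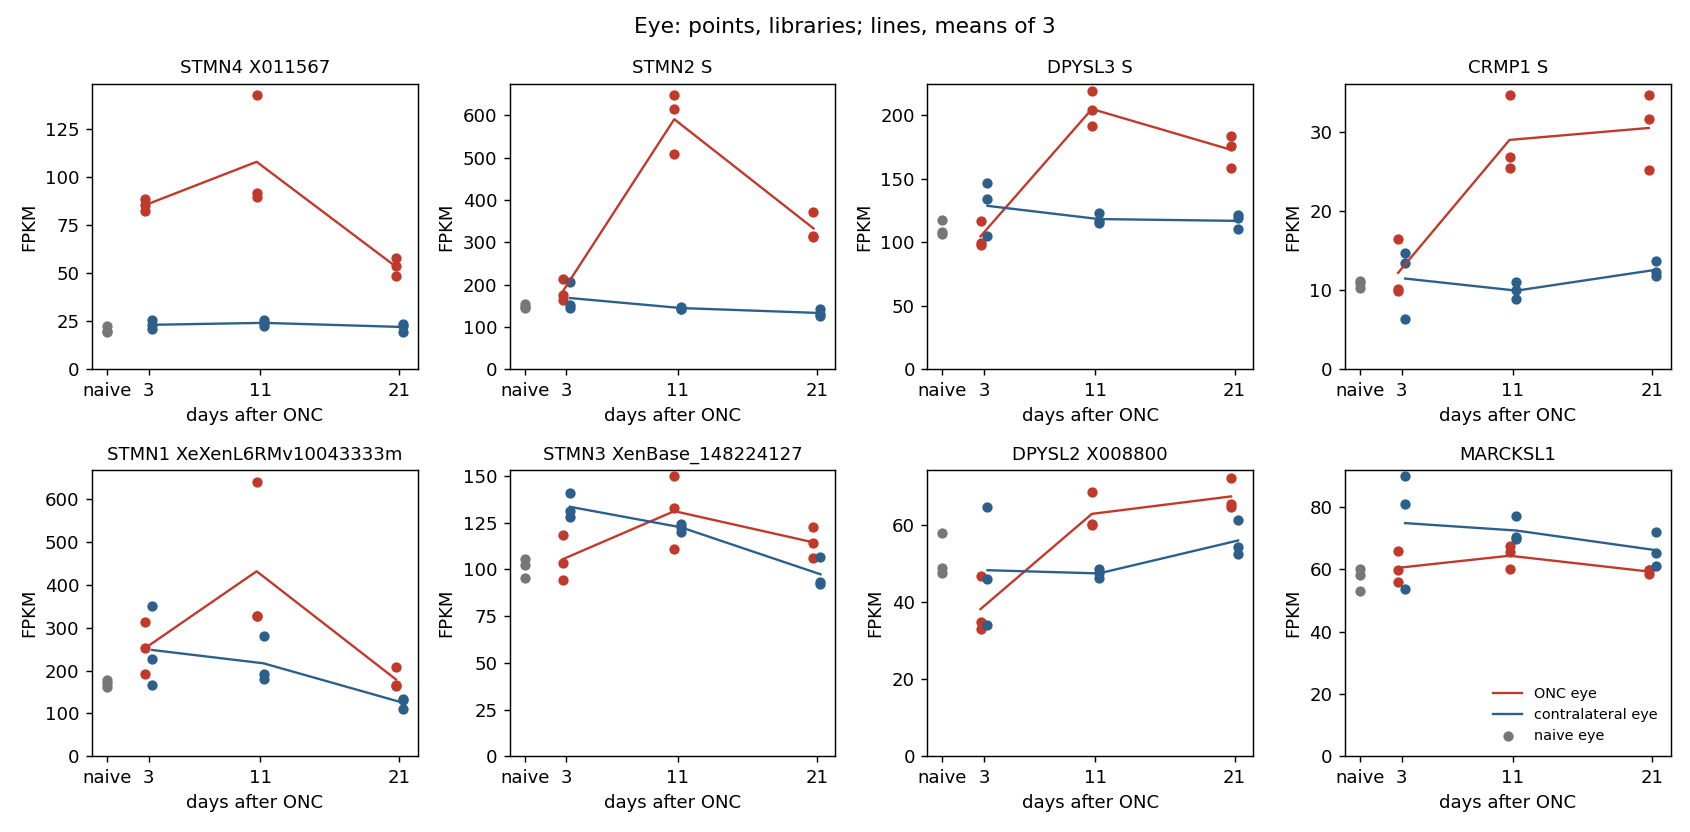
FPKM of members in the eye libraries (points) with group means, for naive eyes and for ONC and contralateral eyes by time. STMN4 X011567 was already raised at 3 days, while STMN2 S reached up to 649 FPKM at 11 days, and MARCKSL1 in ONC eyes stayed below the contralateral eyes at 11 days.

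Counted together, 11 of 20 member entries, of 6 genes, were called at 11 days and 10 at 3 weeks, all higher in ONC eyes. The background of called entries was 2.86% at 11 days and 0.612% at 3 weeks, and of those called higher 2.24% and 0.589%. Leaving out single libraries left 8 to 10 calls at 11 days and 7 to 10 at 3 weeks. All 3 ONC libraries exceeded all 3 contralateral ones at 16 of 20 entries at 11 days (background 11.6%) and at 16 of 20 at 3 weeks (background 7.45%). The members had a median log2 fold change of -0.15 at 3 days, 0.80 at 11 days and 0.54 at 3 weeks, and that of all tested entries was -0.03, -0.05 and -0.01.

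**Figure D3:**
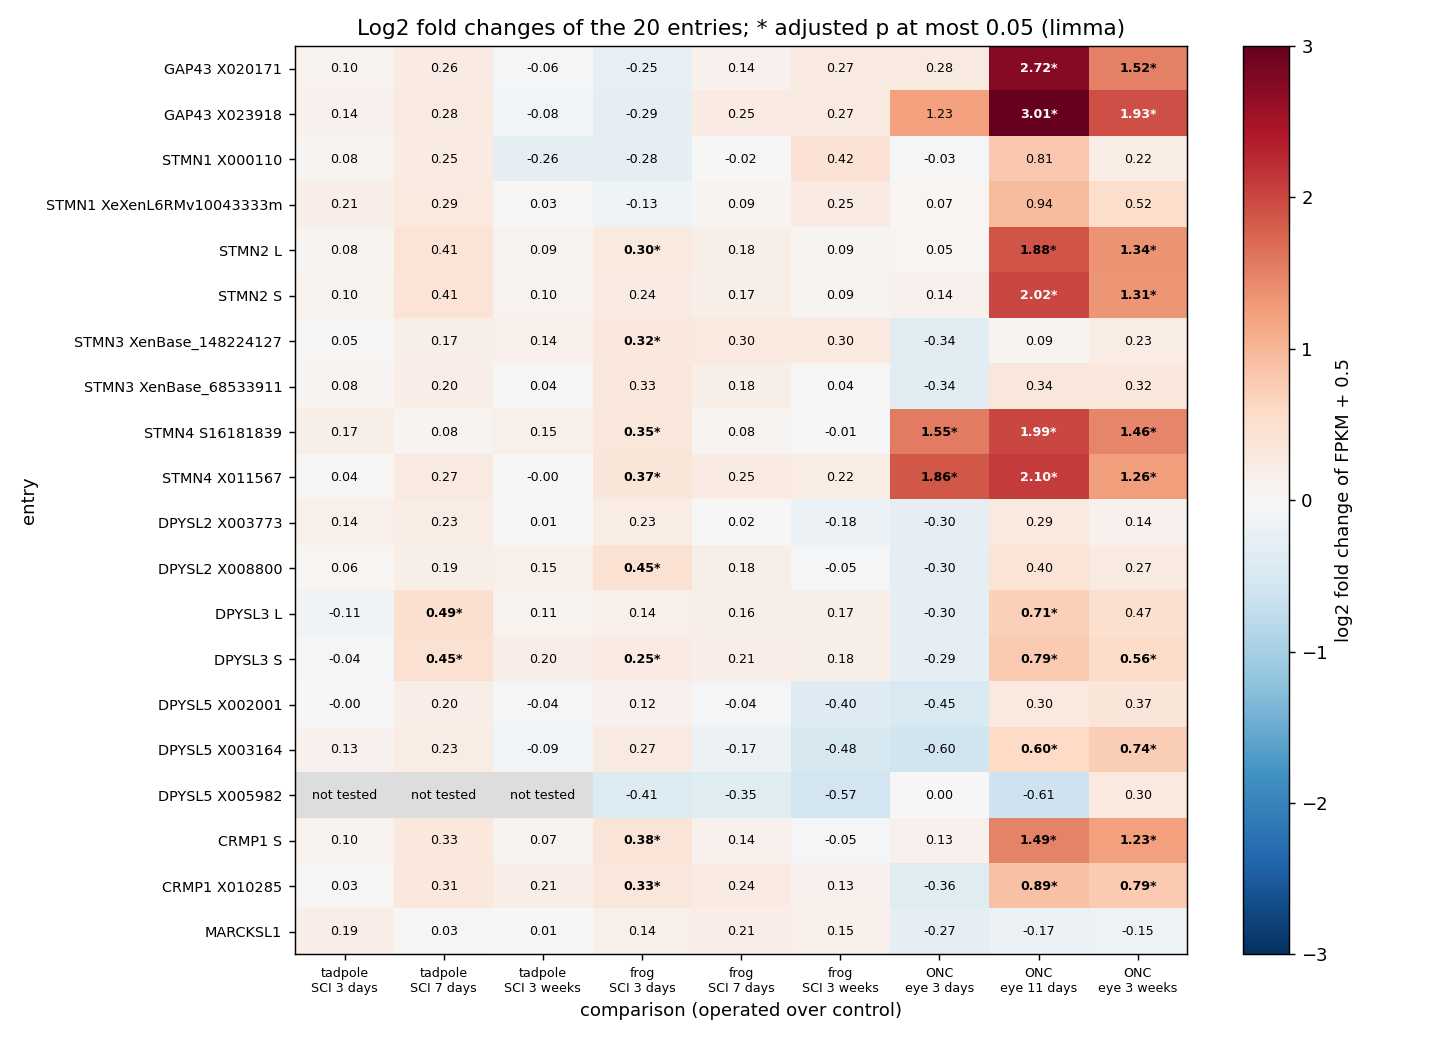
Log2 fold change of each of the 20 member entries (rows) in each of the 9 injury comparisons (columns), operated over control, with called entries marked. Calls cluster in the ONC eye at 11 days and 3 weeks and in the frog SCI hindbrain at 3 days.

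Whether the ONC response itself changed between times was tested as a difference of log2 fold changes, a comparison added after the values had been seen. Between 3 and 11 days the response rose at 5 of 20 entries (background 0.270%, of which 0.225% rose): by 2.45 ± 0.19 at GAP43 X020171 (adjusted p = 0.000301), 1.78 ± 0.22 at GAP43 X023918 (adjusted p = 0.00385), 1.83 ± 0.15 at STMN2 L (adjusted p = 0.000301), 1.88 ± 0.23 at STMN2 S (adjusted p = 0.00401) and 1.08 ± 0.19 at DPYSL3 S (adjusted p = 0.0461). For STMN4 the difference was 0.44 at S16181839 (adjusted p = 0.712) and 0.24 at X011567 (adjusted p = 0.900), and neither passed. CRMP1 differed by 1.36 at CRMP1 S (adjusted p = 0.334) and 1.25 at X010285 (adjusted p = 0.270), without a call. The count of calls was 4 to 9 when single libraries were left out, with 9 when contralateral replicate 3 of 3 days was absent. The DPYSL3 S call held in 8 of 19 alternatives (adjusted p of up to 0.175), and the GAP43 and STMN2 calls in 19 of 19. Between 11 days and 3 weeks GAP43 X020171 alone was called (background 0.0687%, of which 0.0458% fell), where the response fell by 1.20 ± 0.18 on the log2 scale (adjusted p = 0.0417); X023918 had -1.08 (adjusted p = 0.0625). That call was lost in 10 of the 12 fits without 1 library, all but those without ONC replicate 1 of 11 days or ONC replicate 3 of 3 weeks.

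The balance between entries in the eye moved for 2 of the 8 member genes with a pair of entries. GAP43 X020171 made up 36.8% to 49.5% of the summed FPKM of its entries in the 9 ONC eyes, against 50.2% to 57.9% in the 12 contralateral and naive eyes. The mean share in ONC eyes came to 39.5% at 3 days, to 47.9% at 11 days and to 47.7% at 3 weeks, against 55.9%, 52.9% and 54.8% in contralateral eyes at those times and 54.5% in naive eyes. CRMP1 S took 36.3% to 45.2% in ONC eyes, against 27.9% to 33.7% in the contralateral and naive eyes. No ONC eye overlapped the other eyes at these genes, a separation seen for 0.338% of the 5921 symbols with a pair of entries. Reads of near-identical homeologs may be split between entries in counting, so each share is uncertain to that extent. In the hindbrain, the 12 frog libraries did not overlap the 18 tadpole libraries in this share at 3 of the 8 genes, STMN1, STMN4 and DPYSL3, and overlapped at the other 5, GAP43 and STMN2 among them (no overlap at 4.69% of 5523 symbols with a pair of entries). STMN1 X000110 averaged 12.4% to 15.1% in frog groups, against 22.3% to 27.2% in tadpole groups, and STMN4 S16181839 averaged 82.0% to 84.3% in frog groups, against 68.6% to 76.2% in tadpole groups. DPYSL3 L averaged 37.1% to 38.9% in frog groups, against 41.2% to 45.7% in tadpole groups, and GAP43 X020171 averaged 49.2% to 51.9% in frog groups, against 51.5% to 52.8% in tadpole groups.

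**Figure D4:**
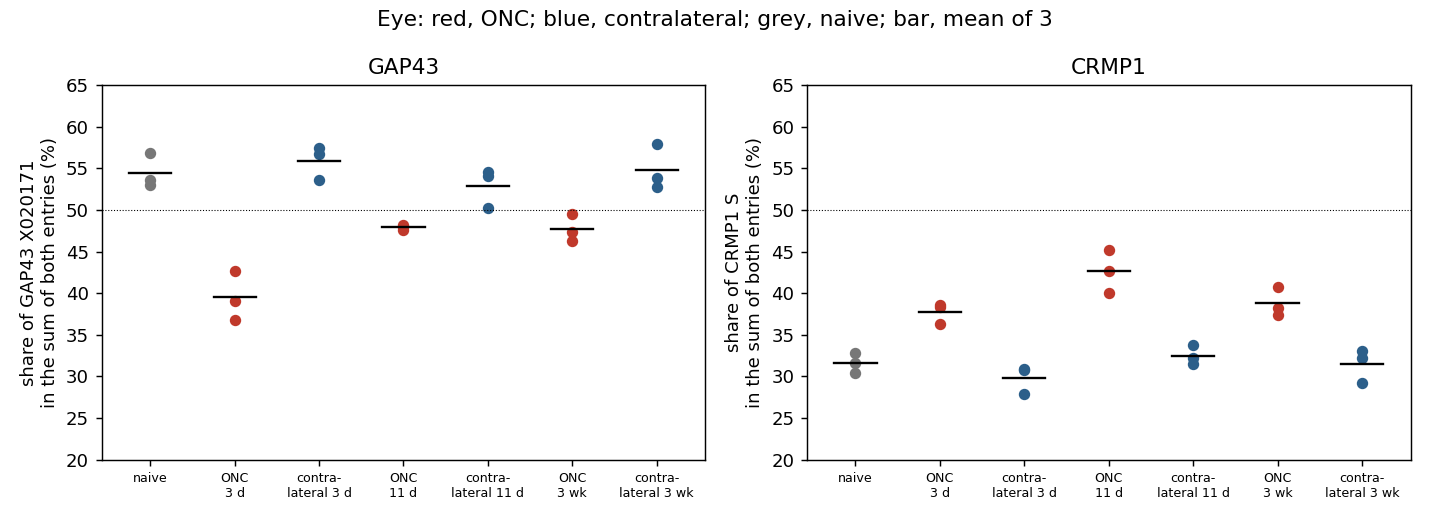
Share of 1 entry in the summed FPKM of both entries of a gene, in percent, for each eye library (points). GAP43 X020171 lay at 36.8% to 49.5% in ONC eyes, below the contralateral and naive eyes, and CRMP1 S lay above them at 36.3% to 45.2%.

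Other markers moved in the crushed eye as well. The neuron list, 16 entries of pan-neuronal genes, had 3 entries called higher at 11 days (background 2.24%). Among them was ELAVL4 TC420387 with a mean of 84.7 FPKM in ONC eyes, against 23.5 FPKM in contralateral eyes. The neuron list summed to 936 to 1075 FPKM in ONC eyes, against 998 to 1014 FPKM in contralateral eyes. The retinal ganglion cell list (11 entries) summed to 38.6 to 44.7 FPKM in ONC eyes, against 43.3 to 46.2 FPKM in contralateral eyes, with both NEFM entries called higher and ISL2 X000565 called lower. At 3 days it summed to 24.9 to 28.1 FPKM in ONC eyes, against 26.4 to 78.0 FPKM in contralateral eyes, and at 3 weeks to 44.2 to 59.3 FPKM in ONC eyes, against 40.0 to 55.7 FPKM in contralateral eyes. The list is not specific to ganglion cells, as it summed to 141 to 585 FPKM in SCI hindbrains of frogs. MBP TC418583, an oligodendrocyte marker, was called lower at 11 days, with a mean of 8.29 FPKM in ONC eyes, against 28.1 FPKM in contralateral eyes. Radial glia markers summed to 1589 to 2019 FPKM in ONC eyes at 11 days, against 1168 to 1388 FPKM in contralateral eyes, and photoreceptor markers to 10765 to 12605 FPKM in ONC eyes, against 12885 to 14226 FPKM in contralateral eyes. The groups did not overlap at these sums, radial glia being the higher and photoreceptors the lower in ONC eyes, and no single entry of either list was called. Macrophage and microglia markers summed to 103 to 128 FPKM in ONC eyes, against 122 to 154 FPKM in contralateral eyes, with overlap. Lens markers overlapped also, at 73414 to 123730 FPKM in ONC eyes, against 61787 to 103838 FPKM in contralateral eyes, and so did skin markers, at 726 to 969 FPKM in ONC eyes, against 839 to 986 FPKM in contralateral eyes. Skeletal muscle markers overlapped at 11 days, with ACTA1 S14742628 called higher, and at 3 days summed to 1354 to 1690 FPKM in ONC eyes, against 1950.3 to 2359 FPKM in contralateral eyes, without overlap and without a call. The part of these shifts in the members' values was not tested.

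A wider list of growth cone and axon genes, covering microtubule-associated proteins, growth cone actin regulators, adhesion and membrane proteins, other membrane substrates of protein kinase C, further relatives of the collapsin response mediators, and kinases and phosphatases of the members, had 98 entries. At 11 days 10 of them were called higher and 2 lower in ONC eyes (background 2.86%, of which 2.24% higher). The list had a median log2 fold change of 0.03 beside -0.05 over all tested entries. The largest rise was that of DCX, the microtubule-binding doublecortin of migrating and growing neurons, which averaged 15.6 FPKM in ONC eyes, against 4.43 FPKM in contralateral eyes (log2 fold change 1.71 ± 0.15, adjusted p = 0.000564). L1CAM, an axonal adhesion protein, averaged 75.4 FPKM in ONC eyes, against 31.7 FPKM in contralateral eyes (log2 fold change 1.24 ± 0.13, adjusted p = 0.00132). The 2 calls in the other direction were both entries of NRN1, which encodes neuritin, and its X032055 averaged 7.29 FPKM in ONC eyes, against 24.0 FPKM in contralateral eyes (log2 fold change -1.66 ± 0.12, adjusted p = 0.000241). At 3 weeks DCX and L1CAM were the 2 entries called, both higher (background 0.612%, of which 0.589% higher), and at 3 days none was called (background 0.190%).

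Contralateral eyes were also set against naive eyes, to see whether unoperated eyes of operated frogs kept the naive level. No member was called at 3 days (background 0.102%), 2 were called at 11 days (background 9.18%) and 3 at 3 weeks (background 8.26%). At 3 days 3 entries had an unadjusted p below 0.05 in limma, and the share of all entries below it was not determined. At 11 days STMN3 XenBase_68533911 read 107, 92.3 and 101 FPKM in contralateral eyes, against 78.1, 73.2 and 75.6 FPKM in naive eyes (log2 fold change 0.40, adjusted p = 0.0259), and MARCKSL1 had a log2 fold change of 0.34 (adjusted p = 0.0409). At 3 weeks STMN1 XeXenL6RMv10043333m read 134, 131 and 110 FPKM in contralateral eyes, against 162, 170 and 179 FPKM in naive eyes (log2 fold change -0.45, adjusted p = 0.0295). DPYSL5 X002001 was called with a log2 fold change of 0.38 (adjusted p = 0.0291), and DPYSL5 X005982, a weak entry, with -1.09 (adjusted p = 0.0271). GAP43, STMN2 and STMN4 were called at no time in contralateral over naive eyes. The 3-day count rose to 6 without contralateral replicate 3. No call was left at 11 days without contralateral replicate 1 or any naive eye (1 without contralateral replicate 2), and none at 3 weeks without contralateral replicate 1 or 2 or naive replicate 2 or 3. All 3 contralateral libraries of 11 days carried the letter B and no naive library did, so the letter and the operation cannot be told apart there.

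Levels differed widely between members. In naive eyes, summed over homeologs, STMN2 averaged 288 FPKM, STMN1 269, DPYSL3 219, STMN3 177, DPYSL2 98.6, GAP43 86.7, MARCKSL1 57.0, STMN4 53.7, CRMP1 34.2 and DPYSL5 28.1 FPKM. In ONC eyes at 11 days STMN2 averaged 1114 FPKM and GAP43 625 FPKM, so that GAP43 stood next to STMN2, and STMN1 (450 to 895 FPKM) overlapped GAP43 (549 to 683 FPKM) but not STMN2 (998 to 1204 FPKM).

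In the hindbrain most members were more abundant in young tadpoles than at later stages. Summed over homeologs, STMN2 averaged 1968 FPKM in tadpole controls at the 3-day time, followed by DPYSL3 with 1151, STMN1 with 746, STMN3 with 559, GAP43 with 516, DPYSL2 with 334, CRMP1 with 255, STMN4 with 188, DPYSL5 with 114 and MARCKSL1 with 80.7 FPKM. In the ranges over libraries, STMN3 (546 to 567 FPKM) and GAP43 (464 to 571 FPKM) overlapped in this order, and the other neighbours did not. In frog controls STMN2 averaged 888 FPKM, STMN3 529, STMN4 337, DPYSL3 286, GAP43 252, STMN1 234, DPYSL2 218, CRMP1 108, DPYSL5 89.8 and MARCKSL1 48.8 FPKM. Among these, the libraries of GAP43 and STMN1 overlapped, and so did those of STMN1 and DPYSL2. STMN4 thus stood behind STMN2 and STMN3 alone in the frog, and behind 7 member genes in the young tadpole.

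DPYSL3 L read 512, 511 and 555 FPKM in tadpole controls at the 3-day time, 293, 309 and 312 FPKM at 7 days, 241, 269 and 245 FPKM at 3 weeks and 110, 114 and 110 FPKM in frog controls. Its level was lower at each later stage, with no overlap between neighbouring stages. The log2 fold change was -1.06 ± 0.09 for 3 weeks over 3 days in tadpole controls (adjusted p = 7.48e-05) and -1.17 ± 0.08 for frog controls over tadpole controls at 3 weeks (adjusted p = 9.92e-05). Between the tadpole controls, 13 of 19 tested member entries were lower at 3 weeks, where 53.9% of all entries were called and 26.5% were lower. These 13 were both entries of GAP43, STMN1, DPYSL2, DPYSL3 and CRMP1, STMN2 L, and DPYSL5 X002001 and X003164.

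Frog controls differed from tadpole controls at 3 weeks at 13 of 20 entries (background 34.6%), 11 of them lower in the frog (background 16.4%). STMN1 X000110 read 32.4, 34.7 and 27.8 FPKM in frog controls, against 140, 147 and 143 FPKM in tadpole controls, the largest decrease among the members (log2 fold change -2.17 ± 0.09, adjusted p = 5.46e-05). GAP43 X020171 read 119, 133 and 137 FPKM in frog controls, against 183, 177 and 207 FPKM in tadpole controls (log2 fold change -0.54 ± 0.09, adjusted p = 0.00358). STMN4 S16181839 went the other way, with 320, 273 and 259 FPKM in frog controls, against 152, 174 and 136 FPKM in tadpole controls (log2 fold change 0.88 ± 0.12, adjusted p = 0.00134). DPYSL5 X003164 was the other entry higher in the frog, at a log2 fold change of 0.48 (adjusted p = 0.0141).

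**Figure D5:**
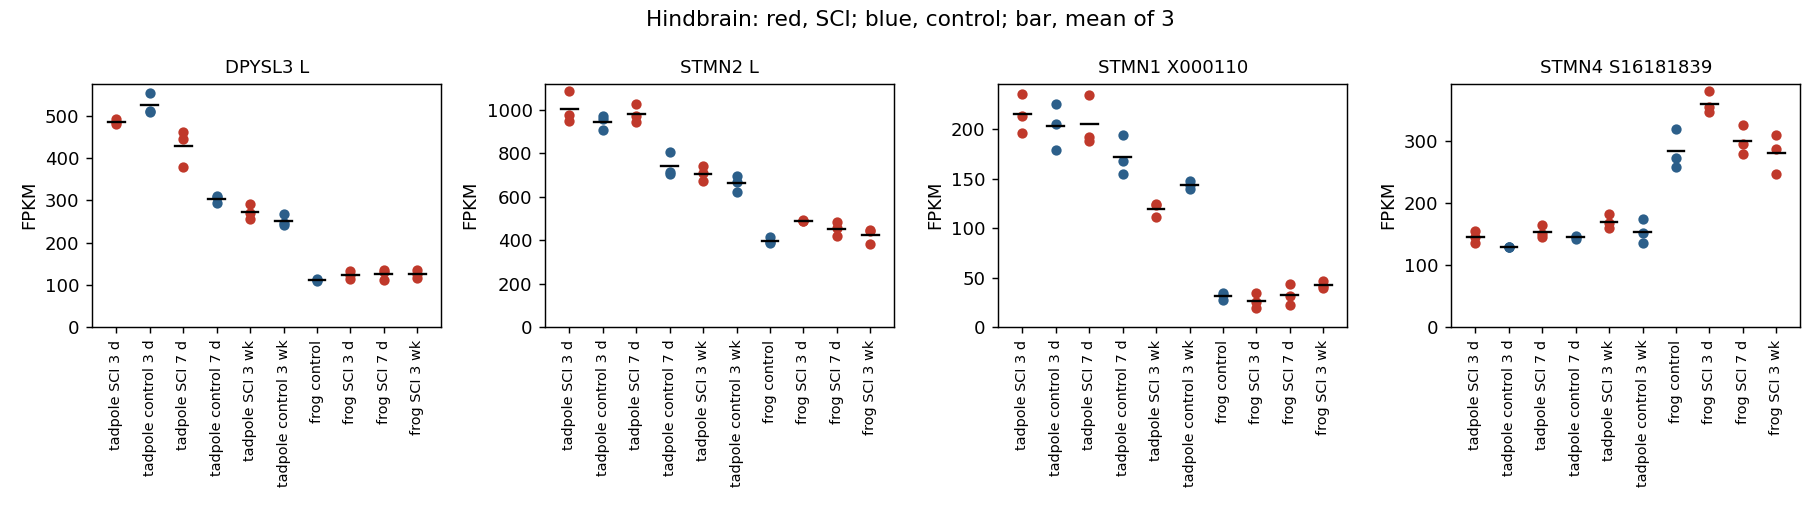
FPKM of members in the hindbrain libraries (points) with group means, for tadpole SCI and control groups by time and for frog controls and SCI groups by time. DPYSL3 decreases with stage from over 500 FPKM to near 110 FPKM at its L homeolog, while STMN4 S16181839 is higher in the frog.

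After SCI in the tadpole, few members passed the test, and those were at 7 days. No member entry was called at 3 days (background 1.85%) or at 3 weeks (background 0.101%). At each of these times 2 entries had an unadjusted p below 0.05 in limma, and the share of all entries below it was not determined. At 3 days the replicate block, for which same-numbered libraries deviated together, raised the calls over all entries to 1001, against 362 without it, and left the member count at 0. GAP43 X020171 read 298, 277 and 301 FPKM in SCI hindbrains at 3 days, against 249, 272 and 295 FPKM in controls, with overlap. At 7 days it read 299, 278 and 250 FPKM in SCI hindbrains, against 227, 213 and 251 FPKM in controls, also with overlap. MARCKSL1 read 92.3, 93.3 and 91.4 FPKM in SCI hindbrains at 3 days, against 79.3, 77.5 and 85.2 FPKM in controls. Every SCI library of MARCKSL1 was the higher one, at a log2 fold change of 0.19 that missed the threshold (adjusted p = 0.123).

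DPYSL3 was the gene called at 7 days, through both homeologs (2 of 19 tested entries, background 4.91%, of which 2.85% higher). DPYSL3 L read 462, 445 and 378 FPKM in SCI hindbrains, against 293, 309 and 312 FPKM in controls (log2 fold change 0.49 ± 0.11, adjusted p = 0.0381). DPYSL3 S read 602, 541 and 506 FPKM in SCI hindbrains, against 394, 402 and 410 FPKM in controls (log2 fold change 0.45 ± 0.10, adjusted p = 0.0468). The SCI libraries at 7 days lay between the 3-day and 7-day control levels. Both calls were lost when SCI replicate 1 or 2 or any control library was left out, with no expression minimum, or with the replicate block. Without SCI replicate 3, 5 entries were called, and with all hindbrain groups in 1 fit 7. STMN2 L read 1026, 973 and 945 FPKM in SCI hindbrains, against 714, 703 and 804 FPKM in controls, with an adjusted p of 0.0779. All 19 tested member entries had a positive log2 fold change at 7 days (median 0.26 beside 0.01 over all tested entries).

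Markers of dividing cells and radial glia moved in the same comparison. Of 15 dividing-cell entries 11 were called higher at 7 days (background 2.85%), with a mean sum of 137 FPKM in SCI hindbrains, against 68.1 FPKM in controls. FABP7, a radial glia marker, averaged 2660 FPKM in SCI hindbrains, against 1142 FPKM in controls. MAG XeXenL6RMv10024568m, an oligodendrocyte marker, was called lower at 7 days, with a mean of 73.8 FPKM in SCI hindbrains, against 97.8 FPKM in controls. At 3 days 8 dividing-cell entries were called lower (background of all calls 1.85%), and among the oligodendrocyte markers MBP X008346, MBP TC418583 and MAG XeXenL6RMv10024568m were called higher. Markers of eye tissue were also present in some hindbrain libraries: lens markers summed at 7 days to 2.54, 83.6 and 80.1 FPKM in SCI hindbrains, against 2.06 to 3.25 FPKM in controls, and photoreceptor markers to 1.36, 33.3 and 33.7 FPKM in SCI hindbrains, against 1.14 to 2.40 FPKM in controls. SCI replicates 2 and 3 were the high ones, and CRYAA X013953, a lens crystallin, was called higher. No entry of the neuron list was called in any tadpole SCI comparison. Of the 98 growth cone and axon entries 4 were called at 7 days, all higher (background 4.91%, of which 2.85% higher). CFL1, the actin-severing cofilin, had the largest log2 fold change (0.56 ± 0.12, adjusted p = 0.0362). The part of these shifts in the members' values was not tested.

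In the juvenile frog, 8 of 20 member entries were called higher at 3 days after SCI and none lower (background 11.0%, of which 7.36% higher). The changes were small. DPYSL2 X008800 read 133, 116 and 123 FPKM in SCI hindbrains, against 98.7, 90.9 and 82.8 FPKM in controls, the largest of them (log2 fold change 0.45 ± 0.08, adjusted p = 0.016). STMN2 L read 490, 487 and 493 FPKM in SCI hindbrains, against 413, 391 and 388 FPKM in controls (log2 fold change 0.30 ± 0.06, adjusted p = 0.0274). STMN3 XenBase_148224127 read 376, 358 and 366 FPKM in SCI hindbrains, against 297, 290 and 295 FPKM in controls (log2 fold change 0.32 ± 0.06, adjusted p = 0.0189). At each of these entries all SCI libraries were above all controls.

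STMN4 S16181839 read 380, 355 and 347 FPKM in SCI hindbrains, against 320, 273 and 259 FPKM in controls, and X011567 read 62.8, 70.1 and 72.4 FPKM in SCI hindbrains, against 58.0, 50.8 and 49.6 FPKM in controls. The log2 fold changes were 0.35 ± 0.09 (adjusted p = 0.0457) and 0.37 ± 0.08 (adjusted p = 0.031). CRMP1 S read 66.8, 61.1 and 61.7 FPKM in SCI hindbrains, against 54.4, 47.5 and 44.1 FPKM in controls, and CRMP1 X010285 read 78.8, 71.6 and 72.1 FPKM in SCI hindbrains, against 64.1, 54.7 and 57.9 FPKM in controls. Both were called, with adjusted p of 0.031 and 0.0332, as was DPYSL3 S, with 199, 210 and 216 FPKM in SCI hindbrains, against 175, 176 and 174 FPKM in controls (log2 fold change 0.25 ± 0.06, adjusted p = 0.0351). The 8 calls all disappeared when control replicate 2 or 3 was left out, 1 remained without SCI replicate 2 or 3, and 5 remained without SCI replicate 1.

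GAP43 was on the other side at this time. X020171 read 98.5, 115 and 112 FPKM in SCI hindbrains, against 119, 133 and 137 FPKM in controls, and X023918 read 90.8, 107 and 105 FPKM in SCI hindbrains, against 117, 123 and 129 FPKM in controls. Every SCI library was below every control at both entries, with log2 fold changes of -0.25 ± 0.08 (adjusted p = 0.0873) and -0.29 ± 0.08 (adjusted p = 0.0511) that missed the threshold. Median-of-ratios scaling brought X023918 to -0.33 with an adjusted p of 0.0426. At 7 days X020171 read 123, 151 and 154 FPKM and at 3 weeks 141, 172 and 156 FPKM in SCI hindbrains.

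At 7 days and 3 weeks no member was called in the frog hindbrain (background 1.42% and 0.403%). At each time 8 entries had an unadjusted p below 0.05 in limma, and the share of all entries below it was not determined. STMN1 X000110 read 46.7, 41.3 and 39.7 FPKM in SCI hindbrains at 3 weeks, against 32.4, 34.7 and 27.8 FPKM in controls (log2 fold change 0.42 ± 0.10, adjusted p = 0.0809). DPYSL5 X002001 read 35.9, 53.3 and 49.9 FPKM in SCI hindbrains at that time, against 64.2, 57.0 and 59.9 FPKM in controls (log2 fold change -0.40 ± 0.14, adjusted p = 0.169). Neither entry overlapped between the groups. With all hindbrain groups in 1 fit 4 entries were called at 3 weeks, all 3 of DPYSL5 lower and STMN3 XenBase_148224127 higher, and 1 at 7 days, STMN3 XenBase_148224127. After SCI the members had a median log2 fold change of 0.24 at 3 days, of 0.17 at 7 days and of 0.11 at 3 weeks, beside 0.03, 0.02 and 0.00 over all tested entries. These 3 comparisons share their control libraries and are not independent of each other. Among the oligodendrocyte markers MAG XeXenL6RMv10024568m, MBP X008346 and MOG X000038 were called higher at 3 days, with MAG at a mean of 495 FPKM in SCI hindbrains, against 283 FPKM in controls, and both NEFM entries, a neurofilament subunit of large axons, were called higher (X026370 averaged 243 FPKM in SCI hindbrains, against 126 FPKM in controls). FABP7 was called lower, at 41.9 FPKM in SCI hindbrains, against 90.4 FPKM in controls, while the radial glia list it belongs to summed to 996 to 1119 FPKM in SCI hindbrains, against 1046 to 1137 FPKM in controls, with overlap. Lens markers summed at 3 days to 56.8 to 98.1 FPKM in SCI hindbrains, against 3.05 to 51.3 FPKM in controls, without overlap, and CRYBA1 X017282, another crystallin, was called higher. Of the 98 growth cone and axon entries 15 were called higher and 2 lower at 3 days (background 11.0%, of which 7.36% higher). MAPT, which encodes the microtubule protein tau, had the largest rise, with X009168 at a mean of 94.3 FPKM in SCI hindbrains, against 46.0 FPKM in controls (log2 fold change 1.01 ± 0.16, adjusted p = 0.00965), and DCLK1 X011053 had the largest decrease (log2 fold change -0.32 ± 0.06, adjusted p = 0.021). The part of these shifts in the members' values was not tested.

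A direct test of the tadpole against the frog response to SCI called no member at 3 days (background 5.91%) or at 7 days (background 4.35%). An unadjusted p below 0.05 in limma was reached by 10 entries at 3 days and 3 at 7 days. The share of all entries below it was not determined. The difference for GAP43 at 3 days was 0.36 at X020171 (adjusted p = 0.0946) and 0.43 at X023918 (adjusted p = 0.0724), positive where the tadpole response was above the frog response. With the replicate block both GAP43 entries were called (adjusted p = 0.0470 and 0.0286 in limma). So was DPYSL2 X008800, at -0.39 (adjusted p = 0.0270). Same-numbered libraries of frog SCI at 3 days had r of 0.198, 0.107 and 0.032, so their pairing is uncertain. The response of the ONC eye at 11 days was compared likewise with that of the frog SCI hindbrain at 7 days, the nearest times available. There 11 of 20 entries differed, all with the larger response in the eye (background 5.21%, of which 2.63% larger in the eye). They were the 11 entries called at 11 days in the eye, and the difference was largest at GAP43, 2.58 ± 0.16 for X020171 and 2.76 ± 0.17 for X023918 on the log2 scale. Tissue, time after surgery and kind of control differ together in this comparison and cannot be told apart.

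Over the 17 group means of log2(FPKM + 0.5), the members varied with GAP43 to different degrees. The points span both tissues and several stages, and r is given as a description. With GAP43 X020171, r was 0.979 for GAP43 X023918, 0.956 for STMN2 L, 0.949 for STMN2 S, 0.404 for MARCKSL1 and 0.360 for STMN1 X000110. Of 20031 entries the 5 outside the set with the highest r were MLLT11 X000473 (0.961), TUBB3 X001904 (0.960), GPD2 X002332 (0.955), B3GNT2 XeXenL6RMv10033090m (0.942) and DUSP14 (0.938). TUBB3 is the neuron-specific beta tubulin, and MLLT11 a small protein of neurons.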

How the data were processed

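The deposited values were FPKM per gene entry and library. According to the labels and the study's methods, the authors aligned reads to a Xenbase genome release with Bowtie2 2.2.9 and TopHat2 2.1.1, estimated FPKM on Mayball gene models with Cufflinks, and scaled libraries with CuffDiff2. Row names give positions on JGIv7b scaffolds, which is not the release named in the methods, and neither how they relate nor the normalization option is given in the sources used here. The authors' own comparisons were not used.

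FPKM were transformed to log2(FPKM + 0.5) here, and limma 3.58.1 (R 4.3.3; lmFit, eBayes with trend) was fitted to the compared groups alone. Entries that averaged 0.45 FPKM or more in 1 group were tested, with Benjamini-Hochberg adjustment over all of them. Responses were compared by interaction terms. Figures used Python 3.11.15 and matplotlib 3.10.9.

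Members, gene lists and comparisons were chosen with earlier results of these data known. Per-library values are printed for entries called in an injury comparison and for the strongest entry of each gene except DPYSL2. Its strongest entry, X003773, is given by its range in eyes. Other library values were chosen after they were seen. Of other lists the called genes with the largest change are named, and the 5 entries most like GAP43. Markers for neurons, dividing cells, radial glia, macrophages and microglia, retinal ganglion cells, photoreceptors, lens, skeletal muscle and skin were summed or counted. Of the oligodendrocyte markers only single called entries are given, chosen after their values were seen; 1 gene of that list, and with it the list's sums and counts, is not reported here.

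Alternative settings were scaling by median of ratios, no expression minimum, 0.45 FPKM in every library, pseudocounts of 0.1 and 1, all groups of a tissue in 1 fit, a replicate block, summed homeologs, naive eyes as control, the title letter as covariate and leaving out each library. Leaving out the B libraries of 3 days, and both tests between ONC times, were added after seeing the data. The study calls the tadpole pools paired and took operated and contralateral eyes from the same frogs. Neither its text nor the labels say that a replicate number marks a pair, so the reported tests were unpaired. Correlations of same-numbered libraries, after removal of group means, were all above 0.1 only for tadpole SCI at 3 days (r of 0.250, 0.153 and 0.180). For ONC at 3 days r was -0.198, 0.541 and 0.667 in replicate order. The letter B marked 1 library of the first of these pairs, none of the second and both of the third. Letter and pairing therefore cannot be told apart there.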

Additional observations from a re-analysis of the deposited data

Results flagged for a closer look

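Each result here is a difference between responses that passed the interaction test in limma. In the ONC eye at 11 days, the log2 response exceeded that of the frog SCI hindbrain at 7 days by 2.58 at GAP43 X020171, 2.76 at GAP43 X023918, 1.70 at STMN2 L, 1.85 at STMN2 S, 1.91 at STMN4 S16181839 and 1.85 at STMN4 X011567. For the collapsin response mediators the excess was 0.55 at DPYSL3 L, 0.58 at DPYSL3 S, 0.77 at DPYSL5 X003164, 1.35 at CRMP1 S and 0.65 at CRMP1 X010285. The call of DPYSL3 L held in 11 of 19 alternatives and that of DPYSL3 S in 15 of 19.

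Within the eye, the response at 11 days exceeded that at 3 days by 2.45 at GAP43 X020171, 1.78 at GAP43 X023918, 1.83 at STMN2 L, 1.88 at STMN2 S and 1.08 at DPYSL3 S. From 11 days to 3 weeks the response at GAP43 X020171 changed by -1.20. That call held in 7 of 19 alternatives, and the DPYSL3 S call between 3 and 11 days in 8 of 19. Groups of 3 libraries are too small for a test of outlying samples.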

How the results depend on the processing

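Counts are called member entries, with the count of the reported test in parentheses. For tadpole SCI at 7 days (2), no minimal expression gave 0, all groups in 1 fit 7 (3517 of all entries, against 976) and the replicate block 0. All groups in 1 fit gave 1 for frog SCI at 7 days and 4 at 3 weeks (0 each), for contralateral over naive eyes 2 (3 days, against 0), 1 (11 days, against 2) and 0 (3 weeks, against 3), 8 for ONC 11 minus 3 days (5) and 2 for 3 weeks minus 11 days (1), which was 0 with no minimal expression and with the block. The replicate block gave 13 for frog SCI at 3 days (8), both GAP43 entries among them as lower, and 3 for tadpole minus frog at 3 days (0). At ONC 3 days it called GAP43 X023918 (adjusted p = 0.0295 in limma), 3 entries against 2. Naive eyes as control gave 5 for ONC at 3 days (2). Leaving out the B libraries gave 5 for contralateral over naive eyes at 3 days. Apart from tadpole SCI at 3 days, some same-numbered libraries correlated weakly or negatively, which does not show that replicates were unpaired. The reported ONC tests left out any pairing of a frog's eyes. The block moved no other member count by over 1.5 times.

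Leaving out 1 library gave 0 to 5 for tadpole SCI at 7 days, 0 to 7 for frog SCI at 3 days, 0 to 2 for ONC at 3 days, 8 to 10 at 11 days, 7 to 10 at 3 weeks, 13 to 14 for tadpole controls, 12 to 14 for frog over tadpole controls, 0 to 6 (6 without contralateral replicate 3), 0 to 2 and 0 to 3 for contralateral over naive eyes, 0 to 2 and 0 to 1 for tadpole minus frog, 9 to 11 for eye minus frog, 4 to 9 and 0 to 2 between ONC times, and 0 for the others.

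Turned signs were listed only where the reported test or the alternative made a call. Among these the sign turned for DPYSL5 X005982 in ONC eyes at 3 days (-0.98 with naive control). Uncalled entries could turn as well: MARCKSL1 at 11 days averaged 64.3 FPKM in ONC, 72.4 in contralateral and 57.0 in naive eyes. With homeologs summed, the sum of a gene could differ in sign from its weaker entry. This held for DPYSL5 against X005982 in contralateral over naive eyes at 3 weeks (sum 0.30). It also held for STMN4 against X011567 in frog over tadpole controls (sum 0.70). These are changes of the gene sum, not of the entry. GAP43, STMN2, STMN4 and CRMP1 at 11 days kept their calls in 15 of 15 alternatives. Causes were not tested. Read counts were not used here, so the limit that depth sets on weak entries such as DPYSL5 X005982 was not determined.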
